A study of Mus musculus with 18 samples.

Results

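The 9 genes described here encode parts of the JAK-STAT pathway and its feedback inhibitors. They were chosen by gene symbol (Socs1, Socs3, Cish, Stat2, Stat3, Jak1, Jak2, Il6ra and Il6st), and all 9 had a row in both tables of 21441 genes, 1 for RAW264.7 macrophages and 1 for mouse liver. The rule itself used gene symbols and no measured value, though earlier results of these data were known when the members were chosen. All 9 passed the filter on low values, a mean above 1 FPKM (fragments per kilobase of transcript, scaled to library size) over the 9 libraries of a table, among 9905 genes in macrophages and 10147 in liver. Cish in macrophages passed it narrowly, with a mean of 1.02 FPKM that rested on the LPS and LPS+MIC-1 libraries.

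The study asked how moringa isothiocyanate-1 (MIC-1), an isothiocyanate from moringa seeds, changes the response to LPS, the lipopolysaccharide of bacterial outer membranes that activates Toll-like receptor 4. Each table holds 3 control, 3 LPS and 3 LPS+MIC-1 libraries. The livers came from wild type male C57BL/6 mice, whose age is not given in the sources used here. They were gavaged for 3 days with vehicle or with 80 mg/kg MIC-1 in diluted DMSO, then injected intraperitoneally with saline (control) or 10 mg/kg LPS, and killed at 16 h. RAW264.7 is an established mouse macrophage-like line, so its libraries show 1 transformed line rather than primary cells. Its labels repeat the strain and doses of the mice, whereas the design text and the table's header give 10 µM MIC-1. The LPS concentration and duration of the sequenced cultures are not given in the sources used here. Nothing states that the macrophage libraries came from separate cultures, so the p-values measure the spread between libraries, which may be technical. No library received MIC-1 without LPS.

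Cytokines of the interleukin-6 family bind a ligand-specific receptor such as that encoded by Il6ra, and the complex engages the shared signalling chain gp130, encoded by Il6st. Janus kinases, among them those of Jak1 and Jak2, are then activated and phosphorylate STAT proteins, which enter the nucleus as dimers. STAT3 drives the hepatic acute-phase response, and STAT2 is a subunit of the ISGF3 complex that type I interferons activate. The SOCS genes, with Cish, are induced by STATs and encode proteins that block the same receptors and kinases. SOCS3 acts on gp130, SOCS1 inhibits the kinases themselves, and CISH is the inhibitor best known from growth hormone and interleukin-2 family signalling through STAT5.

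On the mm9 build (NCBIM37 with GENCODE annotation), the inhibitor genes lie at chr16:10783901-10785629 (Socs1, minus strand), chr11:117827393-117831361 (Socs3, minus) and chr9:107198357-107205115 (Cish, plus). The STAT genes lie at chr10:127707629-127729905 (Stat2, plus) and chr11:100746412-100800854 (Stat3, minus), and the kinase genes at chr4:100824972-100937887 (Jak1, minus) and chr19:29326318-29387570 (Jak2, plus). The receptor genes lie at chr3:89673246-89717084 (Il6ra, minus) and chr13:113265216-113297068 (Il6st, plus). The values describe whole genes, summed over transcripts.

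The 250 bases before the start of each gene, taken from RefSeq on GRCm38.p6, were searched on both strands for 3 patterns. TTC and GAA separated by any 3 bases is the form bound by most STAT dimers, the same with 4 bases between is the form best known for STAT6, and GAAA and GAAA with any 2 bases between is the core of the interferon-stimulated response element. Of the 9 members, 1 held the first, 1 the second and 2 the third, against 7.02%, 5.85% and 2.98% of 32851 promoters of the same length. The matching sequences are those of the inhibitor gene with the largest rise in liver over all 9 libraries, of its relative Socs1 and of Stat2. They are shown from 5′ to 3′ on the gene's strand with the matches in capitals.
Socs3 (chr11:117969367-117969616, minus strand): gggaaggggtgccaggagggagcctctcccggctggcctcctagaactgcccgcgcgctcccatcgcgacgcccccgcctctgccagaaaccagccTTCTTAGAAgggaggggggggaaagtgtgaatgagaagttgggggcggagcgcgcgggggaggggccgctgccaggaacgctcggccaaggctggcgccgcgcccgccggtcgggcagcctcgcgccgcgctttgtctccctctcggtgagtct
Socs1 (chr16:10785537-10785786, minus strand): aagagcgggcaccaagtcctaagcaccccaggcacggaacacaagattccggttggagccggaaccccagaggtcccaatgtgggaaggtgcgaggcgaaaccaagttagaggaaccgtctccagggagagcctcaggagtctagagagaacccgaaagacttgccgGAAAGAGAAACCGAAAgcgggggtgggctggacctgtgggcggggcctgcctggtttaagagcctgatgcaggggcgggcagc
Stat2 (chr10:128270248-128270497, plus strand): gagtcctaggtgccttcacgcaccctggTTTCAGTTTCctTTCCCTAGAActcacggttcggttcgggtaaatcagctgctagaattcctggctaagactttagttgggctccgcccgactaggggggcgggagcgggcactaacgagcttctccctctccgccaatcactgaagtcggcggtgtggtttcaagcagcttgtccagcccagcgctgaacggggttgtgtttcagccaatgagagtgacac
Socs3 held TTCTTAGAA from 154 to 146 bases before the start. Socs1 held GAAAGAGAAA (83 to 74 bases before the start) and GAAACCGAAA (77 to 68), which overlap. Stat2 held TTCCCTAGAA (210 to 201) and, on the other strand, the interferon element core, read here as TTTCAGTTTC (222 to 213). The other 6 members held no match in this window.

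The columns carry no replicate number, so libraries are numbered by their order within a group. In macrophages, LPS library 2 lay near the controls, with a median absolute log2 difference over tested genes of 0.129 from the control mean against 0.693 from the mean of LPS libraries 1 and 3. The study's own macrophage comparisons used fewer LPS libraries than the table holds, and the sources used here do not say which was left out or whether LPS library 2 differed in treatment. Macrophage results are therefore given with and without it, and those of the liver members without liver LPS library 2 as well. Libraries 1 and 3 of each macrophage group were close to each other (0.067 to 0.091) and farther from library 2 (0.155 to 0.696). The same held for LPS and LPS+MIC-1 in liver (0.112 and 0.162 against 0.350 to 0.552), while in the liver controls libraries 2 and 3 were the closest (0.196) and library 1 stood apart. Relative to an estimate of read sampling alone, squared differences between libraries 1 and 3 were 1.36 to 1.99 in macrophages. Pairs with library 2 gave 7.64 to 82.9 there. In liver, LPS libraries 1 and 3 gave 6.29 and those of LPS+MIC-1 1.93, against 35.0 to 70.1 with library 2. Whether such close pairs were independent samples was not tested, so liver p-values may also measure partly technical spread. Fits without LPS library 2 keep only such a pair under LPS. The FPKM values of macrophage LPS libraries 1 and 3 summed to 1137530 and 1132900, against 557136 to 652486 in the other 7 libraries. Steps between low values put 1 FPKM at an estimated 14.1 to 24.3 reads per kilobase in macrophages and 5.76 to 17.1 in liver, with the 2 lowest in liver control libraries 2 and 3. Hepatocyte markers summed to 34770 to 80792 FPKM in liver and to 2.61 to 13.6 in macrophages. The macrophage markers Csf1r and Lyz2 reached at least 108 and 8726 FPKM in every macrophage library, while the Kupffer cell markers Clec4f, Vsig4 and Marco were there at 0 to 0.0786 FPKM.

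In macrophages, Cish, a gene near the floor of detection, and Socs3 both reached their highest levels with LPS+MIC-1. The controls (libraries 1, 2 and 3) listed Cish at 0, 0.063 and 0 FPKM, the LPS libraries at 1.19, 0 and 0.901, and the LPS+MIC-1 libraries at 2.84, 1.8 and 2.42. All 3 LPS+MIC-1 libraries were above all others, and LPS library 2 was at the level of the controls. The differences are those of a gene near the floor of detection, so the Log2FC depends on the 0.5 FPKM added before taking logs and no fold is given. Cish also entered the test only through the treated libraries in which it was higher, so its limma values are given as a description and its calls are not counted as a result. Between LPS+MIC-1 and control, limma with Benjamini-Hochberg adjustment gave a Log2FC of 2.44 (SE 0.44, adjusted p = 0.00718). The study's threshold for macrophages was an adjusted p under 0.01 with a Log2FC beyond 1 in either direction. None of the other 8 members passed it in this comparison, where 5.59% of all tested genes were called. With 0.1 FPKM added the Log2FC was 4.36 (limma adjusted p = 0.0148), which did not pass, nor did the value without any 1 control library, without any 1 LPS+MIC-1 library or without LPS library 3 (adjusted p = 0.0106 to 0.0370). Leaving out LPS library 2, its Log2FC was 1.56 for LPS against control (SE 0.21) and 2.44 for LPS+MIC-1 against control (SE 0.19).

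Socs3 measured 48.6, 66.1 and 48.6 FPKM in control libraries, 42.6, 67.4 and 38.3 in LPS libraries and 142, 64.8 and 139 after LPS+MIC-1. LPS+MIC-1 libraries 1 and 3 stood above every other library, whereas library 2 lay within the range of control and LPS. The group means were 54.4 ± 10.1, 49.4 ± 15.7 and 115 ± 43.8 FPKM (SD, n = 3). LPS+MIC-1 against LPS gave a Log2FC of 1.17 (SE 0.34, limma adjusted p = 0.0438), short of the threshold. Without LPS library 2 the Log2FC was 1.41 (SE 0.33, limma adjusted p = 0.00609), which passed. LPS alone against control gave -0.17 (SE 0.34, limma adjusted p = 0.698) with all 9 libraries and -0.41 without LPS library 2. Bcl3, which encodes an atypical member of the IκB family, was among the 3 genes picked as most like Socs3 over these libraries. Its pattern therefore follows from that choice and is given as a description. It was high in the same pair of LPS+MIC-1 libraries, at 38.7 and 37.8 FPKM against 20.5 to 24.8 in the other 7.

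Socs1 was low throughout. The controls held 3.39, 5.08 and 3.60 FPKM, the LPS libraries 4.22, 4.34 and 4.55 and the LPS+MIC-1 libraries 3.54, 2.22 and 1.8. The LPS+MIC-1 libraries were all below the LPS libraries, and control and LPS overlapped. The difference of LPS+MIC-1 from LPS, a Log2FC of -0.73 (SE 0.24), did not pass with 9 libraries (limma adjusted p = 0.0606) or without LPS library 2 (0.0326).

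**Figure D1:**
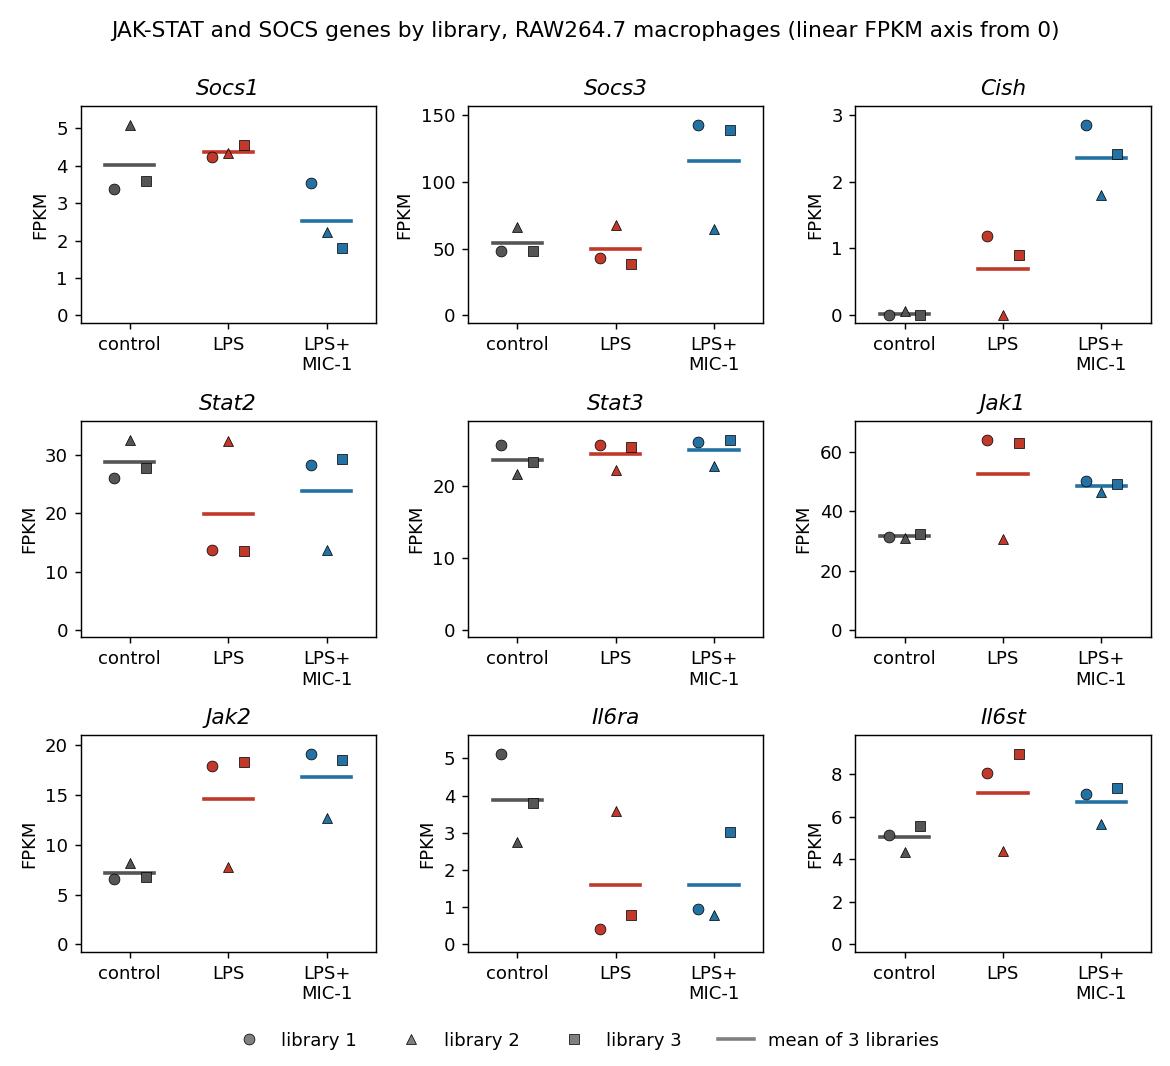
FPKM of the 9 members in each RAW264.7 library, by treatment, with a bar at the mean of 3 libraries. LPS library 2 (red triangle) sits with the controls for Cish, Stat2, Jak1 and Jak2, and LPS+MIC-1 libraries 1 and 3 reach 142 and 139 FPKM of Socs3.

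Among the STAT genes in macrophages, Stat2 varied more between libraries than Stat3 on the deposited scale. Stat2 gave 26.0, 32.6 and 27.8 FPKM in the 3 controls, 13.6, 32.4 and 13.6 under LPS and 28.2, 13.7 and 29.3 under LPS+MIC-1. LPS libraries 1 and 3 and LPS+MIC-1 library 2 held close to 13.6 FPKM and the other 6 libraries 26.0 or more, so the low level crossed the treatments. LPS against control gave a Log2FC of -0.64 (SE 0.39, limma adjusted p = 0.206), and -1.05 (SE 0.30, 0.0133) without LPS library 2, neither past the threshold. Stat3 lay between 21.6 and 26.4 FPKM in all 9 libraries, and its Log2FC was 0.05 for LPS against control, which turned to -0.62 when each library was rescaled to 1 common FPKM sum (-0.85 without LPS library 2 as well), and 0.03 for LPS+MIC-1 against LPS. The 95% interval of the latter ran from -0.24 to 0.31.

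Both kinase genes were higher in the LPS libraries 1 and 3 than in the controls on the deposited scale. Jak2 had 6.54, 8.19 and 6.72 FPKM in the controls, 17.9, 7.77 and 18.3 in LPS libraries and 19.1, 12.7 and 18.6 in those with LPS+MIC-1. Every LPS+MIC-1 library was above every control, and LPS library 2 lay within the range of the controls. With all 9 libraries Jak2 missed the threshold for LPS (Log2FC 0.90, SE 0.32, limma adjusted p = 0.0777) and for LPS+MIC-1 against control (1.16, SE 0.32, 0.0346). Without LPS library 2 it was called in both, with Log2FC values of 1.29 (SE 0.18, limma adjusted p = 0.000319) and 1.16 (SE 0.16, 0.000533). Jak1 measured 31.3, 31.1 and 32.5 FPKM in control libraries, 64.1, 30.7 and 63.1 in LPS libraries and 50.3, 46.4 and 49.2 after LPS+MIC-1. LPS libraries 1 and 3 were highest, the LPS+MIC-1 libraries intermediate, and LPS library 2 at the level of the controls. Its Log2FC with LPS without library 2 was 0.997 (SE 0.06, limma adjusted p = 5.39e-06), just short of the fold limit, and with LPS+MIC-1 it lay below LPS alone by a Log2FC of -0.39 (SE 0.06, 0.000888). These kinase values depend on the scale, since with each library rescaled to 1 common FPKM sum and LPS library 2 left out, Jak2 had a Log2FC of 0.34 with LPS (limma adjusted p = 0.105), Jak1 one of 0.02, and the Jak1 difference between LPS+MIC-1 and LPS turned to 0.41.

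The receptor genes went in opposite directions in the LPS libraries 1 and 3. Il6ra gave 5.11, 2.76 and 3.80 FPKM in the 3 controls, 0.426, 3.59 and 0.778 under LPS and 0.944, 0.791 and 3.03 under LPS+MIC-1. LPS library 2 and LPS+MIC-1 library 3 lay with the controls, and the other 4 treated libraries below 1 FPKM. Il6ra was not called with 9 libraries (Log2FC -1.34, SE 0.60, limma adjusted p = 0.106) and fell with LPS by 1.98 (SE 0.44, 0.00424) without LPS library 2. Il6st had 5.15, 4.35 and 5.58 FPKM in the controls, 8.05, 4.39 and 8.93 in LPS libraries and 7.06, 5.65 and 7.34 in those with LPS+MIC-1. Its Log2FC with LPS was 0.41 (SE 0.25, limma adjusted p = 0.204) and, without LPS library 2, 0.71 (SE 0.14, 0.00226), below the fold limit, while the rescaling to the same sum turned it to -0.22 with 9 libraries.

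Counted over the members in macrophages, Cish set aside from the calls, LPS against control called 0 and LPS+MIC-1 against LPS called 0 with all libraries, against 0% and 3.87% of tested genes. At an unadjusted limma p-value below 0.05, these comparisons gave 3 members each, Cish among them, and 4928 and 3740 of the 9905 genes. With LPS library 2 left out, LPS called 2 of the other 8 members (Jak2 higher, Il6ra lower), MIC-1 added to LPS called 1 (Socs3) and LPS+MIC-1 against control called 1 (Jak2), against 34.2%, 23.3% and 15.7% of tested genes. With FPKM also rescaled to the same sum, LPS called 3 of these 8 members, Socs3, Stat2 and Il6ra, all lower, against 51.1% of tested genes. MIC-1 added to LPS then called 2 higher (Socs3 and Stat2) against 38.9%, and LPS+MIC-1 against control called 0 against 17.4%. That scaling moved the median Log2FC of all genes to -0.93, 0.74 and -0.21 in these comparisons, from -0.02, 0.01 and -0.04. The ranges of LPS and control overlapped for all 9 members with 9 libraries and for 2 of 9 without LPS library 2, while 33.3% and 85.6% of tested genes had ranges that did not overlap. LPS+MIC-1 did not overlap LPS for 2 members and control for 4, against 36.1% and 66.4% of tested genes, and the former count was 7 without LPS library 2, against 80.3%. Cish is among the members in each of these counts that do not overlap. The smallest two-sided p of an exact permutation test with 3 against 3 libraries is 0.1.

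In liver, Socs3 and Stat3 were higher with LPS and with LPS+MIC-1 than in control. Socs3 measured 5.12, 7.74 and 4.78 FPKM in control libraries, 42.2, 25.2 and 40.4 in LPS libraries and 31.8, 38.7 and 31.3 after LPS+MIC-1. Every treated library was above every control, and the LPS and LPS+MIC-1 libraries overlapped. On the log2(FPKM + 0.5) scale it rose 5.69-fold with LPS (Log2FC 2.51, SE 0.26, limma adjusted p = 0.000742) and 5.48-fold with LPS+MIC-1 (2.46, SE 0.26, 0.000856). Stat3, the transcription factor of the acute-phase response, gave 14.4, 13.3 and 8.90 FPKM in the 3 controls, 51.1, 27.4 and 49.9 under LPS and 46.9, 30.8 and 43.5 under LPS+MIC-1. Library 2 was the lowest in both treated groups, yet above all controls. Stat3 rose by a Log2FC of 1.74 (SE 0.30, limma adjusted p = 0.00566) with LPS and of 1.69 (SE 0.30, 0.00535) with LPS+MIC-1. An alternative added with the data in view counted the average of libraries 1 and 3 of each group as 1 sample. With it the Stat3 calls were lost (limma adjusted p = 0.0769 and 0.0551) and those of Socs3 kept.

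Socs1 had the largest standard error of the 9 members in liver. The controls held 1.41, 2.47 and 1.13 FPKM, the LPS libraries 21.2, 0.488 and 22.2, and the LPS+MIC-1 libraries 4.24, 13.3 and 4.89. LPS library 2 was the lowest of all 9 libraries, whereas LPS+MIC-1 library 2 was the highest of its group, and every LPS+MIC-1 library was above the controls. With 9 libraries no Socs1 comparison passed (LPS against control, Log2FC 1.91, SE 1.1, limma adjusted p = 0.198). Without liver LPS library 2 it rose by a Log2FC of 3.41 (SE 0.48, limma adjusted p = 0.00175) with LPS and of 1.75 (SE 0.43, 0.0145) with LPS+MIC-1, and the latter also passed in a fit of only these 2 groups (0.0294).

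Cish had the opposite order in liver. It had 17.1, 3.19 and 2.34 FPKM in the controls, 1.89, 0.788 and 2.29 in LPS libraries and 0.751, 1.13 and 0 in those with LPS+MIC-1. All treated libraries lay below all controls, and control library 1 was far above the other 8. Between LPS+MIC-1 and control it fell by 2.5 on the log2 scale (SE 0.72, limma adjusted p = 0.0278), while the difference with LPS alone did not pass (Log2FC -1.48, SE 0.72, 0.139) and was -0.66 without control library 1. The call was lost without LPS+MIC-1 library 1 (limma adjusted p = 0.0605) or 3 (0.0955) and in a fit of only these 2 groups (0.0501). Socs2, another inhibitor of growth hormone signalling that was no member, was also highest in control library 1. The controls held 103, 30.7 and 38.7 FPKM of it, the LPS libraries 16.3, 8.08 and 10.8, and the LPS+MIC-1 libraries 2.49, 10.4 and 2.44.

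**Figure D2:**
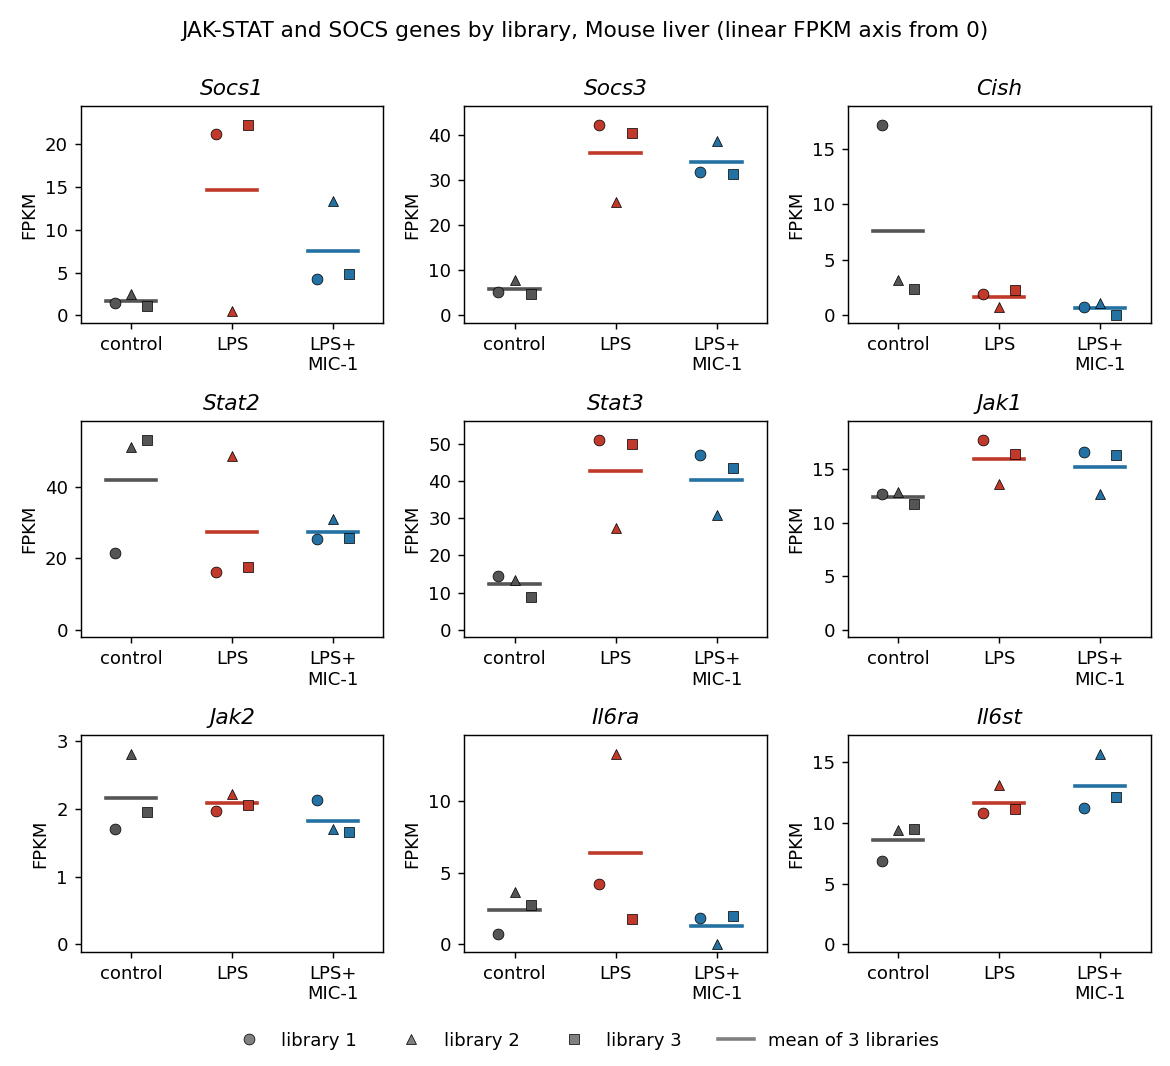
FPKM of the 9 members in each liver library, by treatment, with a bar at the mean of 3 libraries. The 6 treated libraries lie above the 3 controls for Socs3 and Stat3, and control library 1 holds 17.1 FPKM of Cish.

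The remaining members in liver were not called in any comparison with all 9 libraries. Stat2 measured 21.5, 51.0 and 53.1 FPKM in control libraries, 16.1, 48.5 and 17.6 in LPS libraries and 25.3, 30.9 and 25.8 after LPS+MIC-1. Control library 1 was lower than the other controls and LPS library 2 was higher than the other LPS libraries, so those groups overlapped. Its Log2FC with LPS was -0.68 (SE 0.47, limma adjusted p = 0.277) and, without LPS library 2, -1.18 (SE 0.38, 0.0362), which passed the liver threshold of 0.05. Jak1 gave 12.7, 12.9 and 11.7 FPKM in the 3 controls, 17.7, 13.6 and 16.4 under LPS and 16.6, 12.7 and 16.3 under LPS+MIC-1, with all LPS libraries above the controls. The Jak1 Log2FC was 0.34 with LPS (SE 0.17, limma adjusted p = 0.156) and became -0.01 after rescaling to equal FPKM sums. Jak2 lay between 1.65 and 2.81 FPKM in all libraries, with a 95% interval of its Log2FC with LPS from -0.52 to 0.48.

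The receptor genes of liver differed in their spread. Il6ra, the chain that binds interleukin-6 on hepatocytes, had 0.729, 3.65 and 2.77 FPKM in the controls, 4.21, 13.3 and 1.75 in LPS libraries and 1.85, 0.051 and 1.97 in those with LPS+MIC-1. Its highest and lowest values were both library 2 of a treated group, and no Il6ra comparison passed (LPS+MIC-1 against LPS, Log2FC -1.84, SE 0.82, limma adjusted p = 0.997). Il6st measured 6.88, 9.42 and 9.51 FPKM in control libraries, 10.8, 13.1 and 11.1 in LPS libraries and 11.2, 15.7 and 12.2 after LPS+MIC-1. All 6 treated libraries were above the controls, and the Log2FC was 0.43 with LPS (SE 0.20, limma adjusted p = 0.119) and 0.57 with LPS+MIC-1 (SE 0.20, 0.0524), the latter turning to -0.06 after the same rescaling.

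In all, limma called 2 of the 9 members in liver between LPS and control (Socs3 and Stat3 higher) and 3 between LPS+MIC-1 and control (Cish lower as well). The background was 24.6% and 25.2% of tested genes. The ranges of 5 members did not overlap in either comparison, where 45% and 54.6% of tested genes did not. The calls without LPS library 2 were 4 and 4, with 7 and 5 members that did not overlap, against 34.6% and 27.7% of tested genes called and 70.7% and 54.6% not overlapping. These comparisons share the control libraries. The median Log2FC over the members was 0.43 with LPS and 0.27 with LPS+MIC-1, beside 0.15 and 0.15 over all tested genes. Rescaling each library to 1 common FPKM sum moved the latter to -0.18 and -0.43, under which the Log2FC of Socs3 was 2.17 and 1.83 and that of Stat3 1.39 and 1.05, and both stayed called.

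For MIC-1 added to LPS in liver, 0 of the 9 members and 0% of the 10147 tested genes were called, and 0 members and 364 genes had an unadjusted limma p-value below 0.05. The 95% intervals bound the Log2FC of Socs3 to between -0.64 and 0.54 and that of Stat3 to between -0.75 and 0.64. That of Socs1 ran from -2.66 to 2.36. The 2 groups overlapped for all 9 members, where 9.75% of tested genes did not. With LPS library 2 left out, 6 members did not overlap against 45.5%, and 35 genes were called, 0.345% of those tested and no member among them. Socs1 then had a Log2FC of -1.65 (SE 0.48, limma adjusted p = 0.180), with 4.24 to 13.3 FPKM against 21.2 and 22.2.

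**Figure D3:**
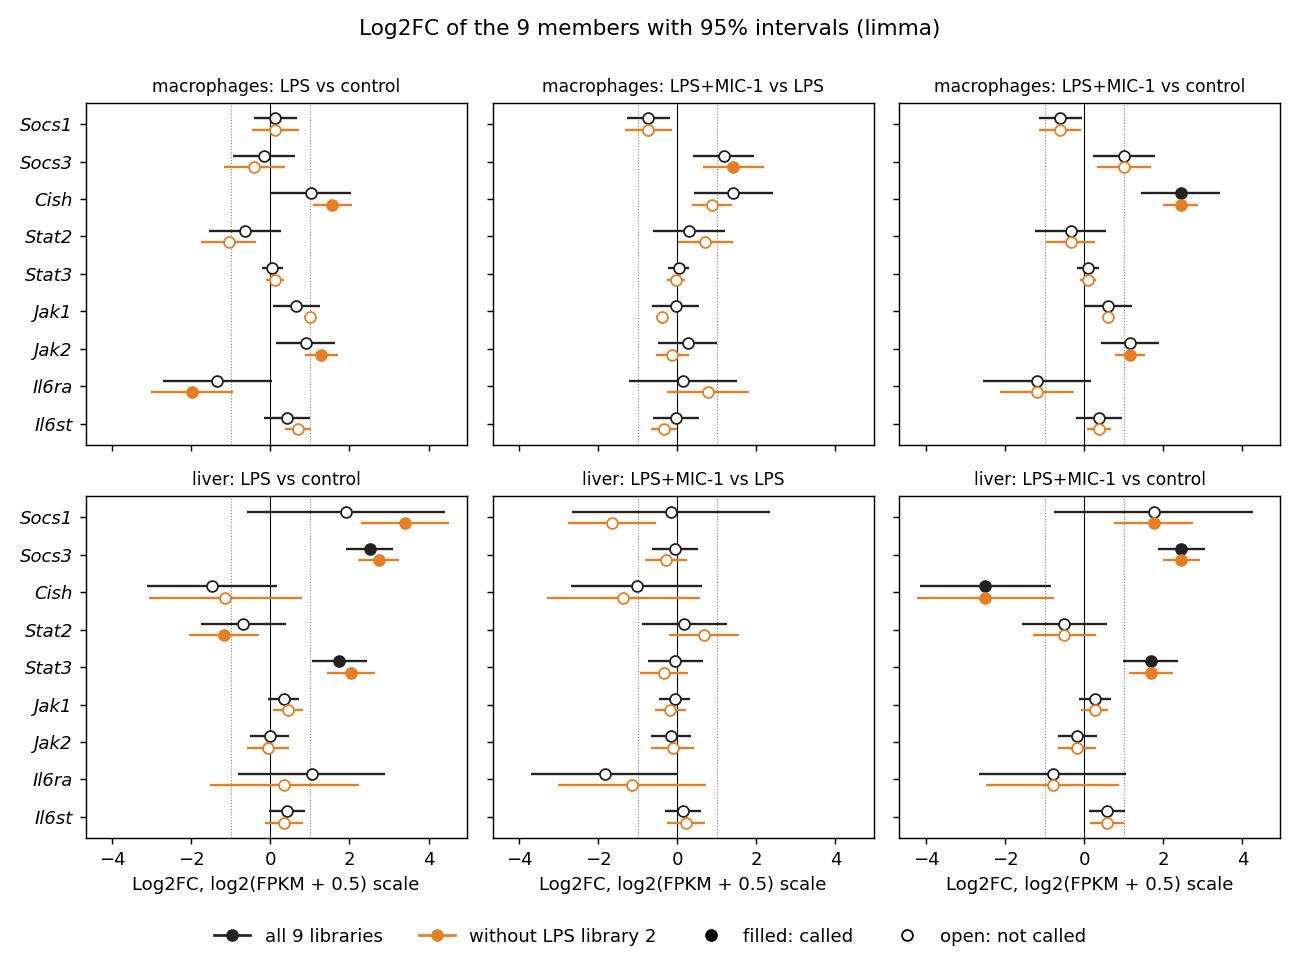
Log2FC of the 9 members on the log2(FPKM + 0.5) scale in 3 comparisons, macrophages above and liver below, with 95% intervals from limma for all 9 libraries (black) and without LPS library 2 (orange). Filled points passed the threshold, though Cish in macrophages entered the test only through its treated libraries, and dotted lines mark a Log2FC of -1 and 1; Socs3 and Stat3 pass in liver against control with either set, and the interval of Socs1 in liver narrows without LPS library 2.

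Levels in the 2 tables were scaled separately, so they are given side by side without a test. In control macrophages the order of means was Socs3 (54.4 FPKM), Jak1 (31.6), Stat2 (28.8), Stat3 (23.5), Jak2 (7.15), Il6st (5.02), Socs1 (4.03), Il6ra (3.89) and Cish (0.021). The ranges of Jak1 and Stat2 overlapped, as did those of Il6st, Socs1 and Il6ra among themselves, while the other neighbours in this order did not overlap. In control liver it was Stat2 (41.8), Jak1 (12.4), Stat3 (12.2), Il6st (8.60), Cish (7.55), Socs3 (5.88), Il6ra (2.38), Jak2 (2.16) and Socs1 (1.67). There the ranges of Stat2 and Jak1 did not overlap, nor did those of Socs3 and Il6ra, and the other neighbours did.

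Of a list of 10 ligand genes, 4 passed the filter in macrophages (Il6, Osm, Lif and Il10). Il6 passed only through its treated libraries, so its values are a description and its calls are not counted as a result. With all 9 libraries 0 of the other 3 were called in any comparison. LPS+MIC-1 against control called 5.59% of all tested genes. In that comparison the median Log2FC over the 4 was 3.67 beside -0.04 over all genes. This median counts Il6, so it too is a description and not a result. Il6 was at 0 to 0.139 FPKM in the controls, 5.45, 0.418 and 6.37 under LPS and 59.0, 15.5 and 59.6 under LPS+MIC-1. Every LPS+MIC-1 library was above every LPS library. Between LPS+MIC-1 and control, Il6 had a Log2FC of 6.15 (SE 0.81, limma adjusted p = 0.00217). That value did not pass without control library 1 or 3 or LPS+MIC-1 library 1 or 3. Without LPS library 2, Osm and Lif were called higher with LPS and with LPS+MIC-1 against control, besides Il6. In these comparisons 16.3% and 7.55% of all tested genes were called higher. Lif gave 1.60, 3.49 and 1.77 FPKM in the 3 controls, 43.4, 3.30 and 42.3 under LPS and 84.6, 35.3 and 80.2 under LPS+MIC-1. Osm, whose product also signals through gp130, had 8.49, 12.6 and 7.29 FPKM in the controls, 61.4, 11.6 and 57.4 in LPS libraries and 73.3, 58.6 and 69.7 in those with LPS+MIC-1. Without LPS library 2 they rose between LPS+MIC-1 and control by Log2FC values of 4.55 (SE 0.37, limma adjusted p = 3.88e-05) and 2.79 (SE 0.19, 1.79e-05). In liver, 2 ligand genes were tested. Il10, at 0 to 0.26 FPKM in control and 1.36 to 2.47 in the treated libraries, passed the filter only through the treated libraries. Its Log2FC was 1.74 with LPS (SE 0.29, limma adjusted p = 0.00491) and 1.87 with LPS+MIC-1 (SE 0.29, 0.00321), given as a description and not counted as calls. Il6 in liver was at 0 to 0.797 FPKM and was not tested.

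The receptor list held 12 other genes. In macrophages 9 were tested and 0 called with all libraries. With LPS library 2 left out, LPS called 4 higher and 1 lower and MIC-1 added to LPS called 5 lower, against 34.2% and 23.3% of all tested genes, and the median Log2FC over the list was 0.89 and -1.02 beside -0.02 and 0.01 over all genes. The largest were Il4ra (Log2FC 2.35, SE 0.21, limma adjusted p = 3.02e-05), Ifnar2 (1.94, SE 0.10, 3.00e-06), Il2rg (1.65, SE 0.16, 4.41e-05) and, lower, Ifngr1 (-1.51, SE 0.14, 3.26e-05), the chains for interleukin-4, type I interferon, the interleukin-2 family and interferon-γ. These list values depend on the scale. Rescaling each library to 1 common FPKM sum, with LPS library 2 left out, moved the median of all genes to -0.93 with LPS and 0.74 with MIC-1 added. In liver 11 were tested. LPS called 2 higher and 1 lower, and LPS+MIC-1 called 2 higher and, with Cntfr, 3 lower, against 24.6% and 25.2% of all tested genes, with medians of 0.30 and 0.27. Osmr, the oncostatin M chain that pairs with gp130, rose with LPS by a Log2FC of 1.89 (SE 0.39, limma adjusted p = 0.00965). Lifr, the leukemia inhibitory factor chain that also pairs with gp130, fell with LPS+MIC-1 by 1.82 (SE 0.18, 0.000646), from 43.4 to 55.7 FPKM in control to 11.3 to 14.6, and it was also called lower with LPS alone, at 13.8 to 16.7. Cntfr (-1.04, limma adjusted p = 0.0204) and Ifnar1 (-1.04, 0.00723) were also lower with LPS+MIC-1. Cntfr passed the filter only through the controls, at 2.03 to 2.57 FPKM against 0.610 to 1.55 in the treated libraries. Its values are a description and its call is not counted as a result. The Cntfr call was lost without control library 2 or any 1 LPS+MIC-1 library, and that of Ifnar1 without LPS+MIC-1 library 1 or 3.

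**Figure D4:**
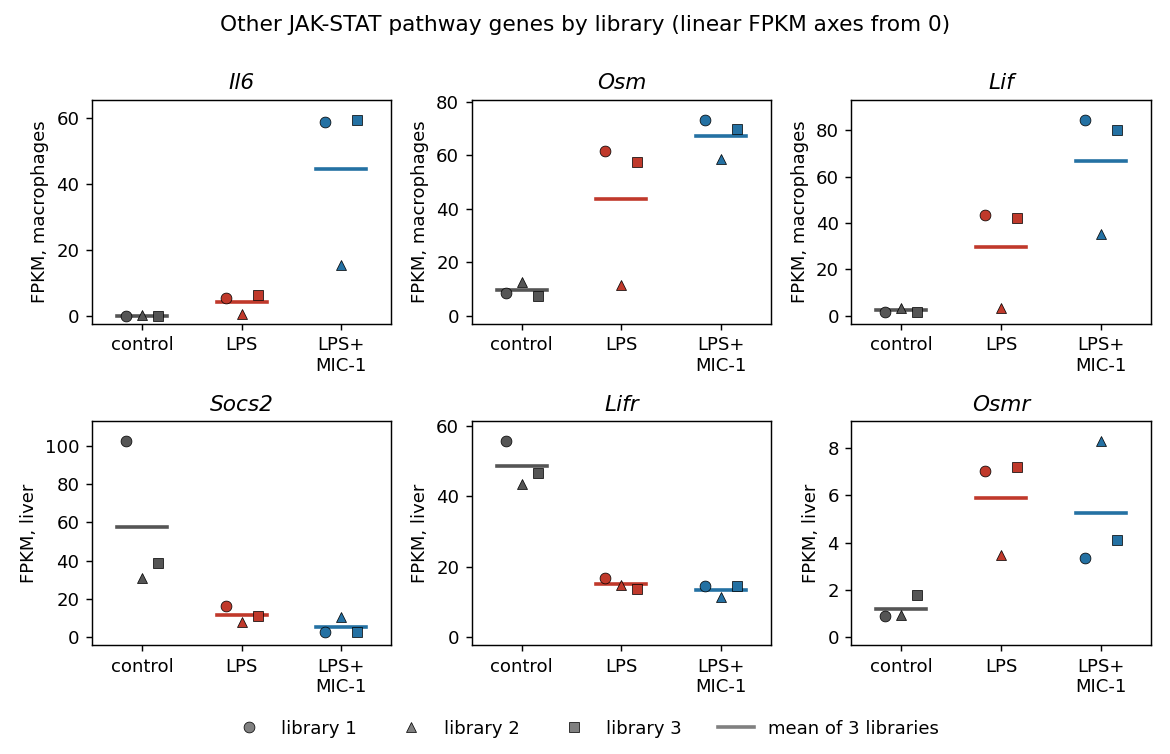
FPKM by library of the ligand genes Il6, Osm and Lif in macrophages and of Socs2 and the receptor genes Lifr and Osmr in liver, with a bar at the mean of 3 libraries. Macrophage LPS library 2 lies with the controls for all 3 ligands, and in liver control library 1 holds 103 FPKM of Socs2 against 2.44 to 38.7 in the other 8.

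Of the 13 other negative regulators, 12 were tested in each table. In macrophages 0 were called with all 9 libraries. Leaving out LPS library 2, LPS called Socs4 (Log2FC 2.03, SE 0.07, limma adjusted p = 9.05e-07) and the SUMO ligase gene Pias4 (1.28, SE 0.09, 8.99e-06) higher and the phosphatase gene Ptpn6 (-1.15, SE 0.09, 1.21e-05) lower, and Socs5 was higher with LPS+MIC-1 than with LPS (1.07, SE 0.11, 8.00e-05). Socs4 was at 4.87 to 5.35 FPKM in control, 22.0, 4.88 and 23.2 with LPS and 7.92 to 8.26 with LPS+MIC-1. Without LPS library 2, MIC-1 added to LPS called 1 of the 12 higher and 1 lower. In that setting LPS called 34.2% of all tested genes and MIC-1 added to LPS called 23.3%. The values depend on the scale, as those of the receptor list do. In liver, LPS called 2 higher and 1 lower (Socs2), and LPS+MIC-1 called 2 higher and 2 lower, shares of the 12 near the 24.6% and 25.2% of all tested genes. The Socs2 call with LPS was lost without LPS library 2. The phosphatase genes Ptpn1 (Log2FC 1.61, SE 0.27, limma adjusted p = 0.00491) and Ptpn11 (1.21, SE 0.33, 0.0247) rose with LPS. Socs2 fell by 3.45 (SE 0.61, 0.00496) and Pias4 by 1.18 (SE 0.33, 0.0236) with LPS+MIC-1. The Ptpn11 call was lost without control library 2 or 3 or LPS library 1 or 3, and that of Pias4 without control library 1 or LPS+MIC-1 library 1 or 3. The medians over the 12 were 0.24 and -0.03. Among 6 tested of the other 7 JAK and STAT genes, 0 were called in macrophages. In liver Jak3, a kinase of hematopoietic cells, was called with LPS (lost without LPS library 2) and with LPS+MIC-1 (1.62 for the latter, SE 0.25, limma adjusted p = 0.00321), at 3.97 to 6.09 FPKM in control, 9.26 to 15.7 with LPS and 13.1 to 16.6 with LPS+MIC-1.

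A list of 12 STAT3 target genes, mostly hepatic acute-phase proteins, followed Socs3 and Stat3 in liver. LPS called 10 of 12 higher and LPS+MIC-1 called 11 of 12 higher, 0 lower, with medians of 3.30 and 3.55 beside 0.15 and 0.15 over all genes. Of all tested genes, LPS called 13.4% higher and LPS+MIC-1 called 13.8% higher. Pim1 was not called in the latter. Saa2 (Log2FC 6.99, SE 1.28, limma adjusted p = 0.00572), Saa1 (6.90, SE 1.36, 0.00733), Lcn2 (6.43, SE 1.18, 0.00578) and Hp (4.52, SE 0.86, 0.00659) were the largest with LPS+MIC-1. The liver controls themselves differed in these genes, with 524, 4703 and 57.6 FPKM of Saa2, so control library 2 was the highest and library 3 the lowest. MIC-1 added to LPS called 0 of the 12 (median 0.19). Saa2 did not overlap between these groups, at 25531 to 48120 FPKM with LPS and 65252 to 67773 with LPS+MIC-1. Nor did Saa1, narrowly, at 6438 to 15450 and 15627 to 21262.5 FPKM. Of all tested genes, 9.75% did not overlap in this comparison. In macrophages 9 were tested, of which LPS+MIC-1 against control called 2, including Lcn2 (8.2, SE 1.48, limma adjusted p = 0.00749), and LPS+MIC-1 against LPS called 1, Cebpd (1.47, SE 0.24, 0.00646). These comparisons called 5.59% and 3.87% of all tested genes. Cebpd was at 16.2 to 22.4 FPKM in control, 12.0 to 23.6 with LPS and 43.6 to 45.0 with LPS+MIC-1. Its call was lost without any 1 library other than LPS library 2, and that of Lcn2 without any 1 control or LPS+MIC-1 library. Without LPS library 2, LPS called 2 higher, including the kinase gene Pim1 (2.96, SE 0.16, limma adjusted p = 3.30e-06), and the median over the 9 was -0.13. In that fit, on the deposited scale, 16.3% of all tested genes were called higher.

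Genes of the interferon branch rose in liver. Stat2 itself was not called with all 9 libraries and was called lower with LPS when LPS library 2 was left out. Of 10 genes that are parts or targets of ISGF3, 8 were tested, and LPS called 6 higher and LPS+MIC-1 called 4 higher, with medians of 1.88 and 1.64. Of all tested genes, 13.4% and 13.8% were called higher. With LPS, Isg15 (Log2FC 2.70, SE 0.27, limma adjusted p = 0.000709), Ifit3 (1.93, SE 0.24, 0.00181) and Usp18 (1.83, SE 0.18, 0.000609) rose. In macrophages 0 of 9 were called with all libraries. Leaving out LPS library 2, LPS called 2 higher and 1 lower, among them Rsad2 (2.60, SE 0.24, limma adjusted p = 3.13e-05) and Ifit2 (-1.82, SE 0.46, 0.00782), and MIC-1 added to LPS called 2 lower, with Irf7 falling by 2.5 (SE 0.25, 7.98e-05). These shares of the 9 were near the 34.2% and 23.3% of all tested genes. The values depend on the scale, as those of the receptor list do. Of 4 growth hormone and STAT5 genes in liver, 2 were called lower with LPS and 2 with LPS+MIC-1 (medians -1.40 and -1.39), against 24.6% and 25.2% of all tested genes, and without LPS library 2 the former count was 1. Those with LPS+MIC-1 were Socs2 and Igfals (-2.03, SE 0.37, limma adjusted p = 0.00557). Igf1 was the one tested in macrophages and fell between LPS and LPS+MIC-1 by 2.57 (SE 0.26, 0.00105).

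The genes whose values were most like those of Socs3 and Stat2 over the 9 libraries are given as a description. In liver, Socs3 was closest to Sdsl (Pearson's r = 0.997 and Spearman's rho = 0.933 over log2 values), Rhoc (0.995 and 1) and the receptor gene Tlr2 (0.995 and 0.933). In macrophages it was closest to E430018J23Rik (0.988 and 0.933), Bcl3 (0.977 and 0.983) and Mrm1 (0.975 and 0.817). Stat2 was closest in macrophages to Rap2b (0.991 and 0.967), the interferon-inducible Trim30d (0.983 and 0.967) and the RNA sensor gene Ifih1 (0.972 and 0.783), and in liver to Arhgap4 (0.981 and 0.883), Txnrd2 (0.978 and 1) and Abhd11 (0.973 and 0.950). The 9 libraries of a table share their treatments and the difference of library 2, and each was picked as the closest among 9905 or 10147 genes.

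Markers of other cells moved with treatment in liver. Of 9 neutrophil markers 7 were in the tables, and their FPKM summed to 35.8 to 52.0 in control, 310 to 387 with LPS and 178 to 429 with LPS+MIC-1. Csf3r was near the floor in every group, at 0 in all controls, 0 to 0.271 with LPS and 0 to 0.487 with LPS+MIC-1. The members of the list differed, since S100a8 was at 2.13 to 7.98 FPKM in control and 141 to 339 in the treated groups, whereas Cxcr2 made up most of the control sum, at 26.5 to 42.6 FPKM, and was at 3.59 to 10.1 in the treated groups. The T cell list summed to 12.9 to 17.5 in control, 2.84 to 6.42 with LPS and 3.26 to 4.59 with LPS+MIC-1, and the B cell list to 3.13 to 3.88, 0.26 to 1.25 and 0.328 to 1.8. Cd3d made up most of the T cell sum in control, at 9.16 to 13.1, and was at 1.57 to 5.17 and 0.886 to 1.69 in the treated groups. Cd3e did not fall, at 0.0763 to 0.395, 0.147 to 0.666 and 0.267 to 0.317, and Cd3g overlapped between the groups. The macrophage and Kupffer cell list, 7 of 8 genes, summed to 40.0 to 75.1, 86.3 to 93.9 and 73.0 to 150, with Marco at 2.18 to 6.79 in control and 23.1 to 75.6 in the treated groups and Clec4f at 13.0 to 30.1 and 2.85 to 6.32. Endothelial markers summed to 19.1 to 21.3, 32.4 to 43.9 and 27.8 to 41.9, with Lyve1 at 7.28 to 10.2, 20.6 to 32.4 and 14.4 to 30.9 while Kdr was at 3.18 to 3.34, 0.649 to 1.71 and 1.65 to 3.59. Stellate cell and fibroblast markers summed to 116 to 231, 103 to 141 and 68.3 to 129, of which Dcn made up most, at 105 to 221, 99.8 to 133 and 61.8 to 122. In bulk liver, a change in the number of cells of a type and a change in RNA per cell cannot be told apart, and the part of these cells in the values of Socs3, Stat3, Jak3 and the other genes was not tested. In macrophages the neutrophil list reached 655 to 721 FPKM with LPS+MIC-1, of which S100a8 made up nearly all, while Mpo, Elane and Retnlg stayed at or below 0.132 and the T cell, B cell and endothelial lists each summed to under 1 FPKM in every library.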

How the data were processed

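RNA of the RAW264.7 line and of mouse liver was sequenced by BGI, 9 libraries each. The authors pseudoaligned the reads with Kallisto (0.45.0) to a RefSeq index of mm9, imported them with tximport and deposited FPKM values scaled by DESeq2 (1.20.0) size factors, 1 table per sample type. Tables of the authors' DESeq2 comparisons hold their fold changes and p-values and were not used. Raw counts were not analysed here, so depth was estimated from the steps between low values.

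Groups came from the labels. Genes with a mean above 1 FPKM were tested on log2(FPKM + 0.5) with limma (3.58.1, R 4.3.3), all 9 libraries in 1 fit with trend, and Benjamini-Hochberg adjustment over all tested genes. A gene was called at an absolute Log2FC above 1 and an adjusted p below 0.01 (macrophages) or 0.05 (liver). The procedure was tested on simulated data with independent noise. Its spread came from libraries 1 and 3 of each group, enlarged in liver. That test did not cover the departure of the remaining library. Named list genes were up to 4 called ones per list and table with the largest absolute Log2FC, plus the 3 genes most correlated with Socs3 and with Stat2. Liver Il6 and Pim1 were added after their values were seen. The members and the lists were chosen with earlier results of these data known. Alternatives changed the pseudocount, the filter, the groups in the fit, the fold limit and the scaling, and left out each library. Python 3.11.15 with pandas 2.3.3, scipy 1.17.1 and matplotlib 3.10.9 was used for the rest. The values of 1 gene of the pathway lists are not reported here.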

Additional observations from a re-analysis of the deposited data

Results flagged for a closer look

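In 3 contrasts a member moved one way in every macrophage library and the other way in every liver library, relative to the mean of the reference group. Between LPS+MIC-1 and control, Socs1 had a mean log2 difference of -0.60 in macrophages and 1.75 in liver. Cish differed between LPS+MIC-1 and LPS by 1.42 in macrophages and -1.03 in liver, and between LPS+MIC-1 and control by 2.44 in macrophages and -2.50 in liver. The single libraries were set only against a mean. The ranges of the groups overlapped for Socs1 in macrophages and for Cish between LPS+MIC-1 and LPS in liver. With all 9 libraries, only Cish between LPS+MIC-1 and control passed the threshold, and its macrophage call is not counted. The tables were scaled separately and the difference between them was not tested. Cish was at 0 to 2.84 FPKM in macrophages, and its liver controls ranged from 2.34 to 17.1 FPKM.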

How the results depend on the processing

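No paired analysis was possible because the columns carry no replicate numbers. Averaging libraries 1 and 3 in liver, and rescaling to the same sum with LPS library 2 left out, were chosen after seeing the data. Counts of members in macrophages include Cish, whose calls are not counted as a result above. The cause of each change below was not tested.

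In macrophages, LPS against control called 0 genes and 0 members, LPS+MIC-1 against LPS 383 and 0, and LPS+MIC-1 against control 554 and 1. A fit of only the 2 groups called 5 genes for the second contrast, and 1541 genes and 2 members for the third. With no minimum fold these 2 contrasts called 617 and 866 genes. With libraries 1 and 3 averaged they called 0 and 0 genes, and 0 members. A pseudocount of 0.1 called 0 members in the third. Rescaling to the same sum without LPS library 2 called 5064, 3856 and 1723 genes and 4, 3 and 1 members. With all libraries, that rescaling turned the split of higher against lower calls from 204 and 179 to 295 and 48 in the second contrast and from 324 and 230 to 294 and 83 in the third.

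In liver, averaging called 231 genes and 1 member with LPS (main values 2493 and 2) and 909 genes and 1 member with LPS+MIC-1 against control (2560 and 3). Without a filter 2 genes were called between LPS+MIC-1 and LPS, against 0. Rescaling to the same sum turned the split with LPS from 1356 higher and 1137 lower to 797 and 1851, and with LPS+MIC-1 from 1396 and 1164 to 535 and 2584. Scaling by the median of ratios gave 1182 and 1273, and 1207 and 1287.

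Leaving out 1 library at a time, genes called ranged in macrophages from 0 to 3386 (LPS), 109 to 2310 (LPS+MIC-1 against LPS) and 141 to 1560 (LPS+MIC-1 against control), and members from 0 to 3, 0 to 1 and 0 to 2. In liver, genes ranged from 1227 to 3510 with LPS and from 0 to 35 between LPS+MIC-1 and LPS, and members from 2 to 4 in both comparisons with control.

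Directions that turned were of members not called. In macrophages, rescaling to the same sum gave Log2FC values with LPS of -0.48 (Socs1), -0.62 (Stat3), -0.025 (Jak1) and -0.22 (Il6st), and without LPS library 2 of -0.75 (Socs1), -0.85 (Stat3) and -0.21 (Il6st). Between LPS+MIC-1 and LPS it gave 0.45 (Jak1) and 0.43 (Il6st), and 0.41 and 0.42 without that library. Stat3 against control was -0.10 in both. Averaging gave -0.081 (Stat2), 0.12 (Jak1), -0.30 (Il6ra) and 0.054 (Il6st) between LPS+MIC-1 and LPS. Leaving out 1 library, the range was -0.0050 to 0.12 for Stat3 with LPS. For LPS+MIC-1 against LPS the ranges were -0.31 to 0.78 (Il6ra), -0.33 to 0.14 (Il6st), -0.39 to 0.14 (Jak1), -0.13 to 0.46 (Jak2) and -0.031 to 0.10 (Stat3), and for Stat2 against control -0.53 to 0.0047.

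In liver, rescaling to the same sum gave -0.014 for Jak1 with LPS, -0.11 (Stat2) and -0.14 (Il6st) between LPS+MIC-1 and LPS, and -0.36 (Jak1) and -0.056 (Il6st) between LPS+MIC-1 and control. Between LPS+MIC-1 and LPS, a pseudocount of 0.1 gave 0.019 for Socs1, and averaging gave 0.84 (Socs1), 0.11 (Socs3), -0.028 (Stat2) and 0.0025 (Stat3). Leaving out 1 library, the range for Jak2 with LPS was -0.15 to 0.15, and between LPS+MIC-1 and LPS it was -0.17 to 0.053 (Jak1), -1.65 to 0.61 (Socs1), -0.29 to 0.080 (Socs3), -0.10 to 0.68 (Stat2) and -0.34 to 0.13 (Stat3).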
